A study of Mus musculus with 2 samples.

Results

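Contacts in trans between chromosome 1 and the clusters of olfactory receptor genes were examined in mouse embryonic stem (ES) cells. Genes on chromosomes 2 to 19 with a symbol of Olfr plus digits were taken from the GENCODE M21 gene models of GRCm38 (mm10), and runs of 5 or more genes with gaps under 500 kb were taken as clusters. Of 1107 such genes in the genome, 1074 lay on chromosomes 2 to 19 and 1035 of these fell into 29 clusters on 13 chromosomes, 1022 of them annotated as protein-coding. The other 39 lay alone or in smaller groups, 27 genes lay on chromosome 1 and 6 on the X chromosome. The clusters held 5 to 218 genes each, spanned 82.5 to 4962 kb and covered 28.5 Mb in all.

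The study deleted Lin28a, which encodes an RNA-binding protein of pluripotent cells, and measured chromatin contacts by Hi-C, an assay that cross-links chromatin, cuts and rejoins it, and sequences the joined ends as pairs. The labels give 1 library of wild-type cells and 1 of Lin28a knockout cells, called wild-type and knockout here, and both were grown on MEF feeder cells over gelatin in LIF/2i medium. The share of feeder DNA among the pairs is not known. The study describes knockout ES cells made as CRISPR/Cas9 clones and others derived from knockout mice, and the labels do not say which were used here. Hi-C pairs of genomic DNA measure no RNA, so neither cell type markers nor Lin28a RNA could be checked in them, and the loss of Lin28a was not checked. The labels speak of 2 replicates but name none, and every difference between the libraries given here compares these 2 libraries and not the conditions.

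Olfactory receptors are G protein-coupled receptors that bind odorants, and their genes form the largest gene family of the mouse genome. Each olfactory sensory neuron expresses a single allele of a single receptor gene, while the remaining clusters are packed into heterochromatin and gather with each other across chromosomes. ES cells do not normally express most of these genes, and transcriptionally silent regions of the genome tend to contact other silent, gene-poor regions.

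The upstream bases of receptor genes are mostly AT-rich, and those of 3 genes are printed as examples. RefSeq (GRCm38.p6) promoter sequences, 250 bases before to 50 after the annotated start, matched 867 of the 1035 cluster genes with 871 starts. Their median G+C content was 34.7%, against 53.0% for 31980 starts of all other genes. They held a median of 1 CpG dinucleotide, against 7, and 35.2% held none, against 4.62%. At 73.2% of the cluster genes' starts the annotated start was itself the start codon, against 3.99% elsewhere, so many of these sequences lie before the coding exon and may not be the true promoter. TATAAA, searched on both strands, was in 41.3% of the cluster genes' sequences and 12.9% of the others, and TAATTA, which is its own reverse complement and the core of many homeodomain sites, was in 19.1% and 4.92%. TCCCNNGGGA, also its own reverse complement and a core bound by EBF factors, was in 0.574% and 0.913%. TATAAA and TAATTA consist of A and T alone, the fixed bases of TCCCNNGGGA are mostly G and C, and the sets differ in G+C content. The shares expected from base composition were not computed, so enrichment or depletion of these motifs was not tested. The 3 genes were chosen as the first in their cluster whose 250 upstream bases lay outside the GENCODE gene and whose start was not a start codon. They come from the clusters with the lowest preference for gene-rich bins (Olfr58, chr9:19780033-19780282, plus strand, 34.4% G+C) and the highest (Olfr288, chr15:98195543-98195792, minus strand, 48.0% G+C) among clusters of 200 or more pairs in each library, and from the cluster with the most genes (Olfr996, chr2:85578965-85579214, plus strand, 34.4% G+C). Each is shown 5′ to 3′ on the strand of the gene, with CpG in capitals.
Olfr58: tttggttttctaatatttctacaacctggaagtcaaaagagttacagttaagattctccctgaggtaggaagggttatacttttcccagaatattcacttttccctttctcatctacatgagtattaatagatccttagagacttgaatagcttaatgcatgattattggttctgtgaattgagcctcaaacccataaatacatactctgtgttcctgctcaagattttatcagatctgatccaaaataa
Olfr288: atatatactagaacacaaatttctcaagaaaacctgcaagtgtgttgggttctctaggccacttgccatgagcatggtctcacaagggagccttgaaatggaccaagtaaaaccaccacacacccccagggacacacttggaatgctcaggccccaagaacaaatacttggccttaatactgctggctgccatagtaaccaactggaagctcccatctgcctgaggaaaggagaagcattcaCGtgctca
Olfr996: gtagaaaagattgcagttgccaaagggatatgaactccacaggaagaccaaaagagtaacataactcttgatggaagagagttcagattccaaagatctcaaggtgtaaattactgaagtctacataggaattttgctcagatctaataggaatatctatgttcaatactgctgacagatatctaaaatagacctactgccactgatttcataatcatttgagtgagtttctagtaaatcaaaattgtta
The sequences of Olfr58 and Olfr996 held 0 CpG and that of Olfr288 held 1, and Olfr288 lies near the G+C content of other genes.

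Pairs were counted with the first end in a stretch of chromosome 1 that both lists held here cover, from 3 Mb on, in 88 bins of 1 Mb of which the last is 0.75 Mb long. This stretch held no Olfr gene of its own (0 genes). It gave 2235886 pairs with chromosomes 2 to 19 in wild-type and 1718683 in knockout. Of these, 26913 had their second end in an Olfr cluster in wild-type, 1.20% (95% Clopper-Pearson interval 1.19 to 1.22), and 20275 in knockout, 1.18% (1.16 to 1.20). All intervals given here are at 95% and cover counting error only, with no spread between cultures. The single clusters held 105 to 3643 pairs in wild-type and 77 to 2565 in knockout, so the smallest clusters were measured least well.

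Each cluster was compared with windows of its own length along its own chromosome, none of which overlapped an Olfr cluster and all of which had at least 80% known bases. Pooled, the clusters took fewer pairs with chromosome 1 than such windows. The observed number over that expected from known bases was 0.914 in wild-type (exact Poisson interval 0.903 to 0.925) and 0.923 in knockout (0.911 to 0.936). The 2 intervals overlapped. Without the cluster Olfr987 to Olfr1272 the ratios were 0.940 and 0.952. The clusters have more GATC sites than their windows, a median of 2.81 against 2.48 per kb, and the ends of the pairs lay on GATC fragments. With the expected number taken from GATC sites in place of bases, the ratios were 0.819 (0.809 to 0.829) and 0.827 (0.816 to 0.839).

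The share of pairs was not even among the clusters, whose medians were 0.963 in wild-type and 0.965 in knockout. It ran from 0.576 times that of the windows at Olfr310 to Olfr292 on chromosome 7 to 1.51 times at Olfr70 to Olfr155 on chromosome 4 in wild-type. In the knockout library it ran from 0.588 at Olfr30 to Olfr311 on chromosome 11 to 1.75 at Olfr1344 to Olfr1350 on chromosome 7. The interval of this ratio lay under 1 for 13 clusters and over 1 for 10 in wild-type, and for 12 and 9 in knockout. The share of windows with such intervals was not counted, so these counts do not set the clusters apart from windows. In wild-type, Olfr310 to Olfr292 ranked above 13.8% of its windows by pair density and Olfr70 to Olfr155 above 93.0%. Receptor genes are close copies of each other, and mapping quality under 30 at either end was found for a median of 13.5% of pairs of a cluster in wild-type and 16.1% in knockout, against 14.0% and 15.3% of all trans pairs. The share was highest at Olfr30 to Olfr311, with 26.1% in wild-type, and at Olfr722 to Olfr750, with 26.6%. With pairs of mapping quality 30 or more at both ends alone, the pooled ratios to the windows were 0.908 and 0.920. The lists hold no mapping quality under 11, so pairs of similar copies lost before that cannot be seen by this filter. The expected number does not allow for how well reads map. Whether fewer pairs mean fewer contacts can therefore not be told, and the relation of pair density to mapping quality over clusters was not tested.

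The first question was where on chromosome 1 the clusters made their contacts. The 88 bins hold 512 protein-coding genes in all. In each bin, pairs with the clusters were compared with the number expected if the clusters spread their pairs along chromosome 1 as their windows did. The clusters contacted gene-poor bins more and gene-rich bins less. In the wild-type library the 10 bins without a coding gene took 1.10 times the expected pairs (exact Poisson interval 1.06 to 1.14), bins of 1 to 2 genes 1.10 (1.07 to 1.12) and bins of 3 to 5 genes 1.06 (1.04 to 1.09). Bins of 6 to 10 genes took 0.967 (0.942 to 0.992) and the 15 bins of 11 or more genes 0.834 (0.811 to 0.857). In the knockout library the same classes took 1.18 (1.13 to 1.23), 1.15 (1.11 to 1.18), 1.05 (1.02 to 1.08), 0.977 (0.949 to 1.01) and 0.774 (0.749 to 0.800). The knockout library lay further from 1 at both ends of this range, and at bins of 11 or more genes the intervals of the libraries did not overlap.

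**Figure D1:**
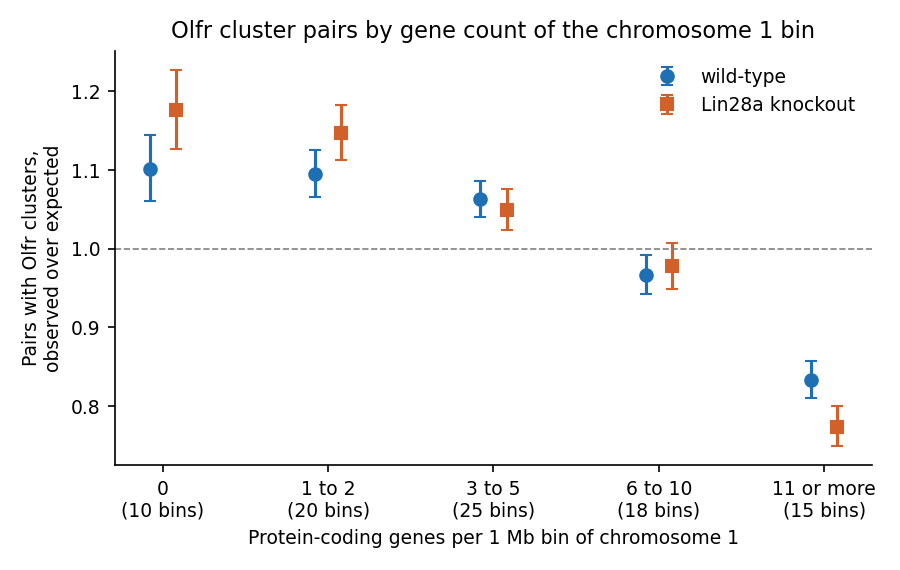
Pairs between chromosome 1 and the 29 Olfr clusters, observed over expected (y axis), for bins of 1 Mb grouped by their number of protein-coding genes (x axis), with exact Poisson 95% intervals as bars. Circles are the wild-type library and squares the Lin28a knockout library, and the points go from 1.10 and 1.18 in bins without genes to 0.834 and 0.774 in bins of 11 or more.

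The decline was shared by most clusters. In bins of 11 or more genes only 9 of 29 clusters in wild-type and 6 in knockout exceeded the number expected, against 20 and 19 in bins without genes. The same counts were not made for single windows, so how far these differ from windows was not tested. Across the 88 bins the ratio fell with gene count, with Spearman's rho of -0.53 in wild-type and -0.61 in knockout. The ratios of the libraries followed each other with rho of 0.84. These are descriptions over neighbouring bins that share the same libraries and differ in base composition.

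By the mean ratio of the libraries, the 3 lowest bins were gene-rich. The lowest was chr1:74000001-75000000, with 30 coding genes that include Ihh, Wnt6 and Wnt10a, which encode secreted signals, and Vil1, which encodes the actin-binding protein villin. It had 341 pairs in wild-type, 0.670 times the number expected (0.601 to 0.746), and 251 in knockout, 0.645 (0.568 to 0.730). Next came chr1:36000001-37000000, with 19 genes that include Zap70, a kinase of T cell receptor signalling, at 0.677 (0.610 to 0.751) and 0.668 (0.593 to 0.751). The bin chr1:37000001-38000000, with 14 genes that include the cone channel subunit Cnga3, was at 0.762 (0.686 to 0.844) and 0.667 (0.588 to 0.754). Low ratios were not limited to gene-rich bins, since chr1:89000001-90000000, with 4 genes, followed at 0.765 (0.682 to 0.856) and 0.671 (0.583 to 0.769), and the last bin, of 0.75 Mb and 3 genes, was at 0.719 and 0.781.

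The 3 highest bins by the same mean held 4 genes or fewer. The bin chr1:29000001-30000000 has no coding gene and had 233 pairs in wild-type, 1.25 times the number expected (1.09 to 1.42), and 214 in knockout, 1.50 (1.31 to 1.72). The bin chr1:70000001-71000000, with Spag16, which encodes a sperm flagellum protein, and Vwc2l, was at 1.34 (1.19 to 1.49) and 1.39 (1.22 to 1.57). The bin chr1:17000001-18000000, with 4 genes, among them Jph1, which encodes a protein that joins the cell membrane to the sarcoplasmic reticulum in muscle, was at 1.24 (1.11 to 1.38) and 1.42 (1.26 to 1.59). In wild-type alone a bin of 8 genes, chr1:44000001-45000000, was among the highest, at 1.34 (1.20 to 1.50) against 1.05 (0.908 to 1.21) in knockout. At none of the 3 highest and 3 lowest bins did the intervals of the libraries lie apart.

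**Figure D2:**
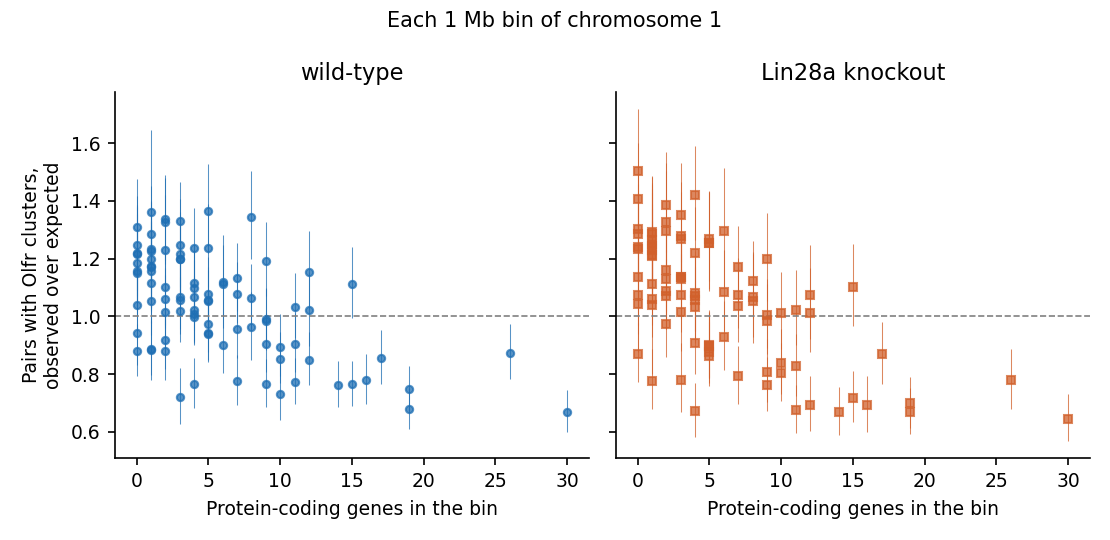
Each point is 1 of the 88 bins of chromosome 1, with its number of protein-coding genes (x axis) and the observed over expected pairs with the Olfr clusters (y axis), for the wild-type library on the left and the Lin28a knockout library on the right. Bars are exact Poisson 95% intervals, and the bin of 30 genes lies at 0.670 and 0.645.

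To give each cluster a single value, the 30 bins of 7 or more coding genes were called gene-rich and the 30 bins of 2 or fewer gene-poor. The gene-rich preference is the log2 of the ratio of pairs with gene-rich to gene-poor bins, over the same ratio for the windows of the chromosome. It is 0 for an average stretch of the chromosome and negative for one that favours gene-poor bins. The pooled clusters had 9926 pairs with gene-rich and 7976 with gene-poor bins in wild-type and 7303 and 6300 in knockout. Their preference was -0.30 in wild-type (log-normal interval -0.34 to -0.26) and -0.43 in knockout (-0.47 to -0.38). The difference, knockout minus wild-type, was -0.12 on this log2 scale (-0.19 to -0.06), so the knockout library leaned further to gene-poor bins by more than counting error. The leading fields of the read names split each library into 2 sets of pairs. These are called sequencing runs here, though they may be lanes of a run, and the labels do not name them. With the smaller sequencing run of each library alone the difference was -0.22 (-0.49 to 0.06), an interval that holds 0.

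Contacts of the clusters also varied with position along chromosome 1. In the first 30 bins, 3 to 33 Mb, which lie nearest the centromere and hold 96 coding genes, the clusters had 1.12 times the expected pairs in wild-type (1.09 to 1.14) and 1.16 in knockout (1.14 to 1.19). From 33 to 62 Mb, with 185 genes, the ratios were 0.945 and 0.921, and from 62 Mb on, with 231 genes, 0.951 and 0.933. Within each of these 3 stretches, gene-rich and gene-poor bins were then set anew by that stretch's own gene counts. The preference combined over them was -0.24 (-0.28 to -0.20) and -0.33 (-0.38 to -0.28), still below 0 in both libraries. It was closer to 0 than over the whole stretch, but the bins compared are not the same. How much of the leaning goes with position can therefore not be told from it. Against only those windows within 20 Mb of each cluster on its own chromosome, the preference was -0.32 and -0.45.

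The excess in the first stretch was larger for clusters near the start of their own chromosome. Windows outside the clusters were not examined by position in this way, so whether the relation is particular to the clusters was not tested. Neither it nor the division at 45 Mb was planned in advance. Over the 23 clusters with 200 or more pairs in each library, the ratio in the first stretch fell with the position of the cluster's middle, with Spearman's rho of -0.71 in wild-type and -0.70 in knockout. The 8 clusters under 45 Mb had a median of 1.19 (1.08 to 1.44) in wild-type and 1.29 (1.03 to 1.63) in knockout, where the range is over clusters. The 15 clusters from 45 Mb on had medians of 1.06 (0.683 to 1.17) and 1.05 (0.628 to 1.21). The highest ratio was that of Olfr24 to Olfr18, in the first part of chromosome 9, at 1.44 (1.34 to 1.56) and 1.63 (1.51 to 1.75), and the lowest was that of Olfr288 to Olfr279, at 0.683 (0.555 to 0.831) and 0.628 (0.490 to 0.792).

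The clusters are themselves among the gene-densest stretches of their chromosomes. They held a median of 41.4 coding genes per Mb, counting the receptors, against 8.79 in their windows, and each lay above 89.1% or more of the windows of its size and chromosome. Their G+C content was lower, with a median of 39.5% against 42.3% in windows. Windows of 1 Mb outside the clusters, grouped by their own coding genes, gave the scale. The 240 windows without a coding gene had a preference of -0.41 in wild-type (-0.42 to -0.39) and -0.49 in knockout (-0.51 to -0.47), the 441 windows of 1 to 2 genes had -0.27 and -0.32, and the 209 windows of 21 or more genes had 0.35 (0.33 to 0.36) and 0.41 (0.40 to 0.43). By this scale the pooled value of the clusters lay between windows without genes and windows of 1 to 2 genes in both libraries, and far from windows as rich in genes as they are. In wild-type its interval (-0.34 to -0.26) holds the value of windows of 1 to 2 genes. The mean G+C content of these 3 groups of windows was 37.9%, 39.6% and 46.1%, so G+C content rose with gene count over these groups.

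**Figure D3:**
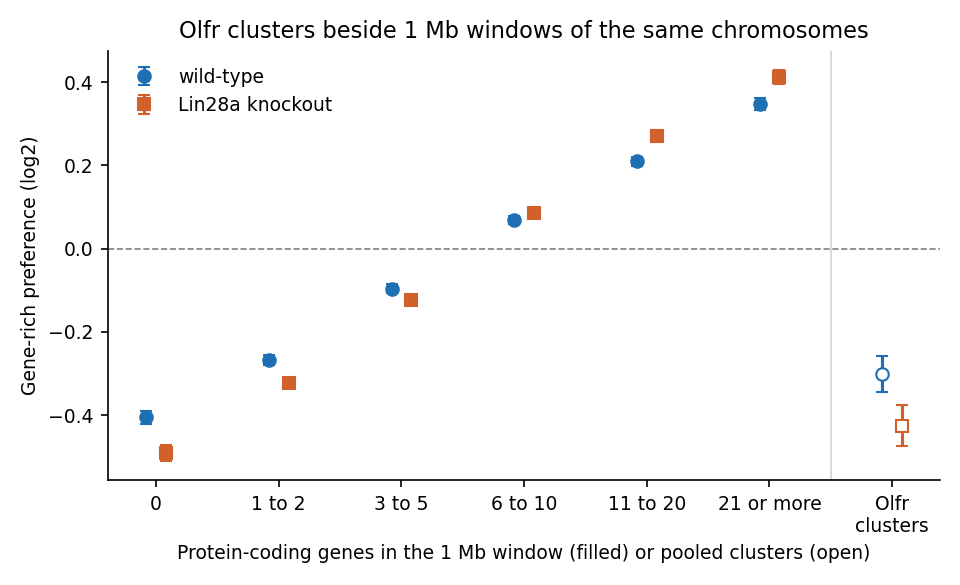
Gene-rich preference on a log2 scale (y axis) of 1 Mb windows grouped by their protein-coding genes (filled symbols) and of the pooled Olfr clusters (open symbols), with log-normal 95% counting intervals as bars. Circles are the wild-type library and squares the Lin28a knockout library, and the clusters, at -0.30 and -0.43, lie between the windows without genes and those of 1 to 2 genes. In wild-type the interval of the clusters holds the value of windows of 1 to 2 genes.

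The shift between the libraries was not found at the clusters alone. Windows without a coding gene were lower in knockout by a difference of -0.09 (-0.11 to -0.06) and windows of 21 or more genes were higher by 0.07 (0.04 to 0.09), so that gene-poor and gene-rich windows stood further apart in knockout. The shift of the clusters minus that of windows without genes was -0.04 (-0.11 to 0.03), an interval that holds 0. Against windows of 1 to 2 genes it was -0.07 (-0.14 to -0.0027), an interval that ends just under 0. Against windows with more genes it was further from 0, from -0.10 (-0.16 to -0.03) for 3 to 5 genes to -0.19 (-0.26 to -0.12) for 21 or more.

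Among single clusters the preference ran from -0.61 to 0.59 in wild-type, with a median of -0.30, and from -0.86 to 0.81 in knockout, with a median of -0.32. It lay under the median of the cluster's own windows for 19 clusters in wild-type and 21 in knockout. The interval lay under 0 for 17 of 29 clusters in wild-type, 58.6%, while this held for 18.6% of 8873 windows with 50 or more pairs in each library. In knockout it lay under 0 for 16 clusters, 55.2%, against 19.6% of windows. The interval lay over 0 for 3 clusters in wild-type, against 14.7% of windows, and for 2 in knockout, against 15.9%. Because small clusters have many more windows than large ones and fewer pairs in each, these shares were also averaged with each cluster's set of windows weighted equally, which gave 29.0% and 29.6% under 0 and 22.3% and 23.2% over 0.

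**Figure D4:**
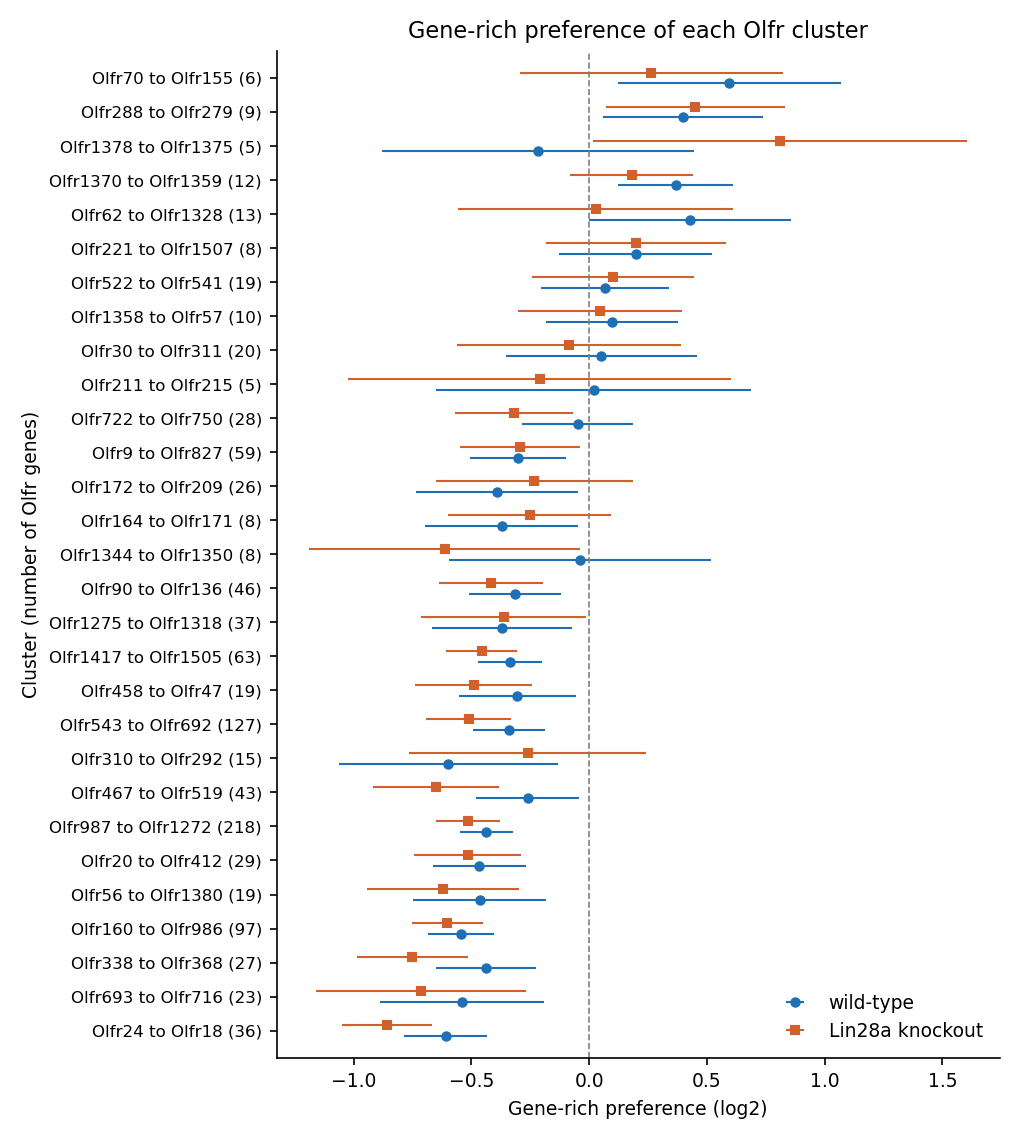
Gene-rich preference on a log2 scale (x axis) of each of the 29 Olfr clusters (y axis, named by first and last gene with the number of Olfr genes), sorted by the mean of the libraries, with log-normal 95% counting intervals as bars. Circles are the wild-type library and squares the Lin28a knockout library, most clusters of 20 or more genes lie at the left of 0 and most at the right of 0 have fewer than 20 genes.

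The 5 clusters with the most genes all favoured gene-poor bins. The largest, Olfr987 to Olfr1272 (chr2:85330779-90292841, 218 genes), had a preference of -0.44 in wild-type (-0.55 to -0.32) and -0.51 in knockout (-0.65 to -0.38), below each of the 32 windows of its size on the chromosome. The other 4 ranked above 4.35% to 26.3% of their windows in wild-type and 4% to 39.4% in knockout, with Olfr9 to Olfr827 the nearest to its windows' middle. The largest cluster holds Olfr73, which responds to eugenol and is known as mOR-EG. Olfr543 to Olfr692 (chr7:102476579-105369355, 127 genes) had -0.34 (-0.49 to -0.19) and -0.51 (-0.69 to -0.33). This cluster holds class I receptors, the kind first known from fish, among them Olfr78, which is also expressed in the carotid body, and Olfr545. Olfr160 to Olfr986 (chr9:37708964-40190134, 97 genes) had -0.54 (-0.69 to -0.40) and -0.60 (-0.75 to -0.45). It holds Olfr151 and Olfr160, known as M71 and M72 and long used to study receptor choice, of which Olfr151 is annotated as a polymorphic pseudogene. Olfr1417 to Olfr1505 (chr19:11826803-13921866, 63 genes) had -0.34 (-0.47 to -0.20) and -0.46 (-0.61 to -0.30), and Olfr9 to Olfr827 (chr10:128989431-130214403, 59 genes) had -0.30 (-0.51 to -0.10) and -0.30 (-0.55 to -0.04). The intervals of all 5 lay under 0 in both libraries, and those of the libraries overlapped for each.

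By the mean of the libraries, the lowest value among clusters with 200 or more pairs in each was that of Olfr24 to Olfr18 (chr9:18751507-20336094, 36 genes), at -0.61 in wild-type (-0.79 to -0.43) and -0.86 in knockout (-1.05 to -0.67). It ranked above 2.82% of its windows in wild-type and 1.41% in knockout. Next by this mean were Olfr693 to Olfr716 (chr7:106675005-107150581, 23 genes), with -0.54 (-0.89 to -0.19) and -0.71 (-1.16 to -0.27), and Olfr338 to Olfr368 (chr2:36373519-37332772, 27 genes), with -0.44 (-0.65 to -0.23) and -0.75 (-0.99 to -0.51). Olfr693 to Olfr716 holds Olfr17, known as P2, and Olfr2, known as I7, a receptor for octanal. Other coding genes lay thinly about it, with 6 in its flanks of 500 kb on each side, the fewest of any cluster.

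The highest value by this mean was that of Olfr288 to Olfr279 (chr15:98186013-98502637, 9 genes), at 0.40 in wild-type (0.06 to 0.74) and 0.45 in knockout (0.07 to 0.83). This cluster has 33 other coding genes in its flanks. Olfr30 to Olfr311 also has 33, at 0.05 and -0.09. Olfr9 to Olfr827 and Olfr543 to Olfr692 have 32 each, and both lay below 0 in both libraries. Second highest by this mean was Olfr1370 to Olfr1359 (chr13:21069334-21706833, 12 genes), with 0.37 (0.12 to 0.61) and 0.18 (-0.08 to 0.44). Olfr221 to Olfr1507 (chr14:52033962-52495749, 8 genes), whose last gene is known as MOR28, had 0.20 (-0.13 to 0.52) and 0.20 (-0.19 to 0.58). Of the 3 highest by this mean, only Olfr288 to Olfr279 had an interval over 0 in both libraries. The highest value of each library over all 29 came from a cluster with fewer pairs, named here after its values were seen. Olfr70 to Olfr155 on chromosome 4 had 0.59 (0.12 to 1.07) from 230 pairs in wild-type and 0.26 (-0.29 to 0.82) from 163 in knockout, and Olfr1378 to Olfr1375 on chromosome 11 had -0.22 (-0.88 to 0.45) from 114 pairs and 0.81 (0.02 to 1.60) from 87. For each of them the intervals of the libraries overlapped.

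Number of genes, base composition and surroundings moved together with the preference. A division at 20 genes was chosen after the values were seen. Of the 15 clusters with 20 or more genes, the preference was below 0 for 14 in wild-type and 15 in knockout, and the medians were -0.37 and -0.51. Of the 14 smaller clusters it was below 0 for 6 in each library, and the medians were 0.04 and 0.04. Among all 8873 windows, 4846 had a negative preference. The intervals of the smaller clusters lay under 0 for 4 and over 0 for 3 in wild-type, and for 3 and 2 in knockout. Those of the larger clusters lay under 0 for 13 in each library. The larger clusters mostly have more pairs and so narrower intervals, and the share of windows of matching lengths was not counted. Over the 23 clusters with 200 or more pairs, Spearman's rho of the preference with the number of genes was -0.46 in wild-type and -0.55 in knockout, with G+C content 0.66 and 0.49, and with the other coding genes in the flanks 0.44 and 0.42. With the share of pairs of low mapping quality rho was 0.11 and 0.31, and with the position of the cluster on its chromosome 0.22 and 0.15. It was -0.34 and -0.38 with GATC sites per kb, and -0.42 and -0.54 with cluster length. With the pair density relative to the windows it was 0.56 and 0.29. The preferences of the libraries followed each other, with rho of 0.82. These clusters share their libraries and differ in depth, and the properties go with one another, so their parts cannot be told apart.

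**Figure D5:**
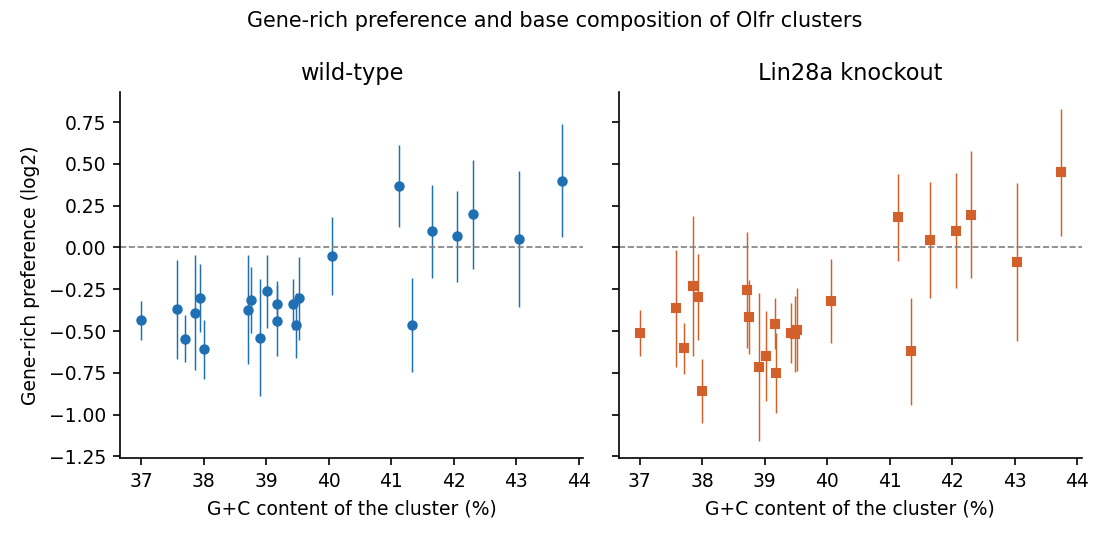
G+C content in percent (x axis) and gene-rich preference on a log2 scale (y axis) of the 23 Olfr clusters with 200 or more pairs in each library, for the wild-type library on the left and the Lin28a knockout library on the right, with log-normal 95% counting intervals as bars. Clusters of higher G+C content lie higher, with Spearman's rho of 0.66 and 0.49 as a description.

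Between the libraries, the knockout value was the lower of the pair for 21 of 29 clusters, against 50.3% of windows, and the median difference was -0.12 over clusters and -0.0026 over windows. Windows with a negative preference, which are more like the clusters, had a median difference of -0.08 with 59.4% below 0, and the 21 clusters with a negative preference had -0.14 with 16 below 0. Both sets were picked by the sign of the same preferences, and window values spread more in knockout (standard deviation 0.52 against 0.43). This choice alone can give differences below 0, and its share in them was not tested. A difference whose interval left out 0 was found at 1 cluster that was lower in knockout, against 2.85% of windows, and at 0 clusters that were higher, against 3.12%. With 29 clusters these counts lie near the background. The cluster was Olfr467 to Olfr519 (chr7:107812263-108894420, 43 genes), with -0.26 in wild-type (-0.48 to -0.04), -0.65 in knockout (-0.92 to -0.38) and a difference of -0.39 (-0.73 to -0.04). It had 1056 pairs in wild-type and 648 in knockout, or 1.07 and 0.921 times the number expected from its windows. Under other settings of the processing, 0 to 3 clusters differed between the libraries, and under some settings not all of these were lower in knockout.

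A list of 18 genes of odorant signalling and receptor choice was set beside the receptors, each by the 1 Mb window about the gene. Most of these genes lay above 0, 14 of 18 in wild-type and 15 in knockout. Of 8873 windows of the clusters' lengths, 4846 had a negative preference. The preference was above 0 with its interval for 11 of 18 in wild-type and 8 in knockout, against 14.7% and 15.9% of all windows, or 22.3% and 23.2% with equal weights. It was below 0 with its interval for 1 in each, and the medians were 0.23 and 0.21. These windows are of 1 Mb, while the shares are over windows of the clusters' lengths. As a class, 1 Mb windows of 6 to 10 coding genes had 0.07 in wild-type and 0.08 in knockout. Those of 11 to 20 genes had 0.21 and 0.27, and the listed windows were not matched to others by gene count. Omp, Rtp1, Rtp2, Lhx2 and Emx2 had intervals that hold 0 in both libraries. Among the signalling genes, Adcy3, the adenylate cyclase of the odorant cascade, had 0.26 (0.09 to 0.43) and 0.35 (0.16 to 0.54), and Gng13, a G protein subunit, had 0.42 (0.23 to 0.60) and 0.44 (0.24 to 0.64). Cnga4, a subunit of the olfactory channel opened by cyclic AMP, has a window that overlaps the end of the cluster Olfr543 to Olfr692 and had -0.08 (-0.31 to 0.16) and -0.13 (-0.41 to 0.16).

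Among the genes of receptor choice, Ldb1, a cofactor that links the receptor enhancers, had 0.44 (0.26 to 0.62) and 0.47 (0.26 to 0.68). Ebf1, a transcription factor of olfactory neurons, was the gene with its whole interval below 0 in both libraries, at -0.23 (-0.45 to -0.02) and -0.25 (-0.49 to -0.01). Its window still ranked above 33.9% of the windows of its chromosome in wild-type and 36.6% in knockout. An interval of the difference between the libraries without 0 was found for 2 of the 18, both higher in knockout, while 3.12% of windows were higher and 2.85% lower. Kdm1a, a histone demethylase needed for receptor choice, went from 0.36 (0.16 to 0.56) to 0.81 (0.57 to 1.04), and Ric8b, a factor that stabilizes the olfactory G protein, from 0.32 (0.13 to 0.52) to 0.66 (0.43 to 0.89). The differences of these genes from the pooled clusters were not tested.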

How the data were processed

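Per the labels, cross-linked chromatin was cut, ligation products were captured on streptavidin and the libraries read from both ends on an Illumina HiSeq instrument. The submitters' processing notes name CASAVA 1.8, Bowtie2, HiC-Pro and mm10. Each deposited list holds 1 line per pair, with positions, strands, restriction fragments, a summed distance to restriction sites and a mapping quality score of 11 to 42 for each end, and carries no normalization by the authors. The lists overlap for first ends in the 88 bins of chromosome 1, with 5767991 pairs in the wild-type and 4412861 in knockout, from 2 sequencing runs each. The runs were told apart by read names alone, and whether they are separate runs or lanes of 1 run is not known. Of checked first ends, 99.5% lay on the GATC fragment of the given number within 1 fragment. Pairs of chromosome 1 with contigs outside the assembled chromosomes (17757 and 14162) were left out.

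Cluster members and lists were chosen with earlier results of these data known. Pairs were counted by position in Python 3.11.15 with numpy 2.4.6, pandas 2.3.3 and scipy 1.17.1, with genes placed by their midpoint and window totals taken as fixed. No test was run, since each group has 1 library. Full values were given for the 5 clusters with the most genes, the 3 lowest and 3 highest with 200 or more pairs in each library, those whose difference excluded 0, and those of receptors well known by name. The steps were tested on simulated data.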

Additional observations from a re-analysis of the deposited data

Results flagged for a closer look

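The knockout list also reaches further along chromosome 1 and into chromosome 2, where Olfr genes lie at the first end, and contacts of these Olfr stretches with Olfr clusters of later chromosomes were counted in that library. These pairs entered no comparison and have no wild-type counterpart. The expected number came from how often other stretches of the same chromosome and length met the clusters relative to the clusters' windows. Olfr16 to Olfr418 on chromosome 1 had 59 pairs with the clusters, 1.36 times the number expected (1.04 to 1.76), above 84.9% of 318 such stretches, whose median was 1.09. Olfr433 to Olfr220 on chromosome 1 had 61, 1.48 times (1.13 to 1.90), above 97.6% of 251 stretches, whose median was 1.12. Olfr338 to Olfr368 on chromosome 2 had 253, 1.44 times (1.26 to 1.62), above 94.7% of 38 stretches, whose median was 1.11 and highest value 1.56. The remaining stretch, Olfr1416 to Olfr12 on chromosome 1, had 39 pairs, 0.843 times (0.600 to 1.15). With the expected number taken from known bases the 4 ratios were, in the same order, 1.28, 1.37, 1.24 and 0.775. The intervals are exact Poisson at 95%. The medians of the stretches lay above 1, and the interval of Olfr16 to Olfr418 holds its own, so a ratio over 1 alone does not set these stretches apart.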

How the results depend on the processing

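The preference of the pooled clusters stayed below 0 in both libraries under each of 18 alternatives, and so did the difference between the libraries, which ran from -0.22 to -0.08. With the top and bottom 20% of bins the preferences were -0.41 and -0.55. With the smaller sequencing run alone the wild-type preference was -0.24 and the difference -0.22, 13 knockout clusters lay under their windows' median (of 15 clusters with enough pairs) and 0 clusters differed between the libraries. Within the 3 stretches of chromosome 1, an alternative chosen after seeing the data that divides the bins anew in each, the preferences were -0.24 and -0.33. The pair density was 0.903 in wild-type with gaps under 200 kb, 0.895 and 0.902 with at least 10 genes per cluster, 0.885 and 0.895 with windows within 20 Mb, 0.942 in wild-type with the smaller run, 0.940 and 0.952 without the largest cluster, and 0.819 and 0.827 from GATC sites, also chosen after seeing the data. The count of 1 cluster that differed between the libraries became 0 with gaps under 1 Mb, 2 with bins of 500 kb, with the top and bottom 20% of bins or with windows within 20 Mb, and 3 with pseudogene symbols, with mapping quality of 30 or more, with bins of 2 Mb, with all annotated genes or with the larger run alone. Of the clusters that differed, 2 of 3 were lower in knockout with pseudogene symbols, with bins of 2 Mb and with all annotated genes. With bins of 500 kb it was 1 of 2. The cause of the moves listed here was not tested. No paired analysis was possible because each group has 1 library. Clusters with few pairs have wide intervals, which limits what could be detected for single clusters.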
